A study of Oryctolagus cuniculus with 8 samples.

Results

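HBB2 and ALAS2 are genes of red cell production, and their transcripts were followed pup by pup in rabbit forebrain. HBB2 encodes a beta chain of haemoglobin and ALAS2 the erythroid form of 5-aminolevulinate synthase. The pair was selected on its normalised intensities in these same samples, as a measure of blood in the tissue, so every level and difference given for it is a description with no test. All probes whose gene name or description matched either gene were taken, which gave 3 of the 43603 probes of the array that were not controls, 2 for HBB2 and 1 for ALAS2.

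The samples were total RNA from the forebrain of 8 New Zealand rabbit pups delivered by caesarean section on gestational day 29, with term at day 32, and killed on postnatal day 14. The 4 pups of the dexamethasone group received this synthetic glucocorticoid into muscle, with 2 daily doses of 0.25 mg/kg over no more than 5 days, and the 4 pups of the saline group received the vehicle. All 8 pups were preterm and formula fed, so no term or untreated animal is among them. RNA was hybridised to 4 two-colour Agilent arrays, each holding 2 pups of the same group. Pups 1 and 3 of each group carried the dye Cy3 and pups 2 and 4 the dye Cy5, with no dye swap. Both dexamethasone arrays were on 1 slide and both saline arrays on the other, and the file headers give the slides different scan dates. Slide, scan date and treatment therefore cannot be told apart.

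Adult-type haemoglobin is a tetramer of alpha and beta chains, each holding a haem. Its transcripts make up most of the messenger RNA left in young circulating red cells. ALAS2 catalyses the first and rate-limiting step of haem synthesis in erythroid cells, while ALAS1 serves that step in other cells. Blood held in brain vessels brings globin transcripts into a tissue sample, and in mouse and human brain globin transcripts have also been found in some neurons.

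The probes that carry the results are printed here because they are the only probe of ALAS2 and the only probe that reads the messenger strand of HBB2, and because a pair of probes of HBA, the alpha chain gene set beside them, share most of their bases. Each reads 5′ to 3′ as the scanner files give it. Capitals mark the 48 bases that a pair of HBA probes share.
HBB2, A_04_P001081: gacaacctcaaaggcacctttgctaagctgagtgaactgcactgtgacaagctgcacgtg
ALAS2, A_04_P023601: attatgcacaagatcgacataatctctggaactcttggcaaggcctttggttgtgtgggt
HBA, A_04_P003481: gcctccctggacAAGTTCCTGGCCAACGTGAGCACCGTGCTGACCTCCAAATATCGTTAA
HBA, A_04_P002986: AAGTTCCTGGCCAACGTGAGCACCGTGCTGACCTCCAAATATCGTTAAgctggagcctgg

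In oryCun2, the build named in the file headers, the HBB2 probe lies on the minus strand at chr1:146237830-146237889. The ALAS2 probe lies on the minus strand at chrX:36434483-36435107, a span of 625 bases for a 60-base oligo. The longest run of bases that the HBB2 probe shares with any other probe is 13, and it is 13 for the ALAS2 probe as well. No other beta-type globin probe is named on the array, so whether the HBB2 probe also binds transcripts of such genes was not tested. The other HBB2 probe, A_04_P005566, was designed on an expressed sequence tag of rabbit eye to which the files give the gene name HBB2. It lies on the plus strand at chr1:146238243-146238302, and starts 354 bases above the higher coordinate of the coding probe. It therefore reads the opposite strand to the messenger RNA, as far as the coordinate order gives the strand, which it did for 748 of 756 RefSeq transcripts (98.9%) with 2 or more mapped probes.

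At the coding probe of HBB2, dexamethasone pups 1 to 4 had raw mean spot intensities of 57140, 137620, 59366 and 230140, against 23499, 174680, 10912 and 206640 in saline pups 1 to 4. The saline pups labelled with Cy3, pups 1 and 3, were the lowest of the 8, and all 8 spots stood far above local background medians of 25.5 to 46.5. No spot of these genes, or of the arrays as a whole, was saturated.

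After normalisation, dexamethasone pups 1 to 4 had log2 intensities of 16.56, 16.08, 16.54 and 17.05 for HBB2, against 16.98, 14.45 and 17.04 in saline pups 2, 3 and 4. The spot of saline pup 1 was marked as an outlier by the scanner software and was left out of the fit, and with it kept the value was 15.11. The groups overlapped: saline pups 2 and 4 lay just below the highest dexamethasone pup and above the other 3, and saline pups 1 and 3 were below every dexamethasone pup. HBB2 averaged 16.56 ± 0.39 in dexamethasone forebrain (SD, n = 4) and 16.16 ± 1.48 in saline forebrain (SD, n = 3). The spread among saline pups, with a range of 2.58, was larger than that among dexamethasone pups, with a range of 0.97, and that difference in spread was not tested. The fitted difference, with the dye as a term, was 0.53 on the log2 scale with an SE of 0.61, so it was smaller than its own error.

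**Figure D1:**
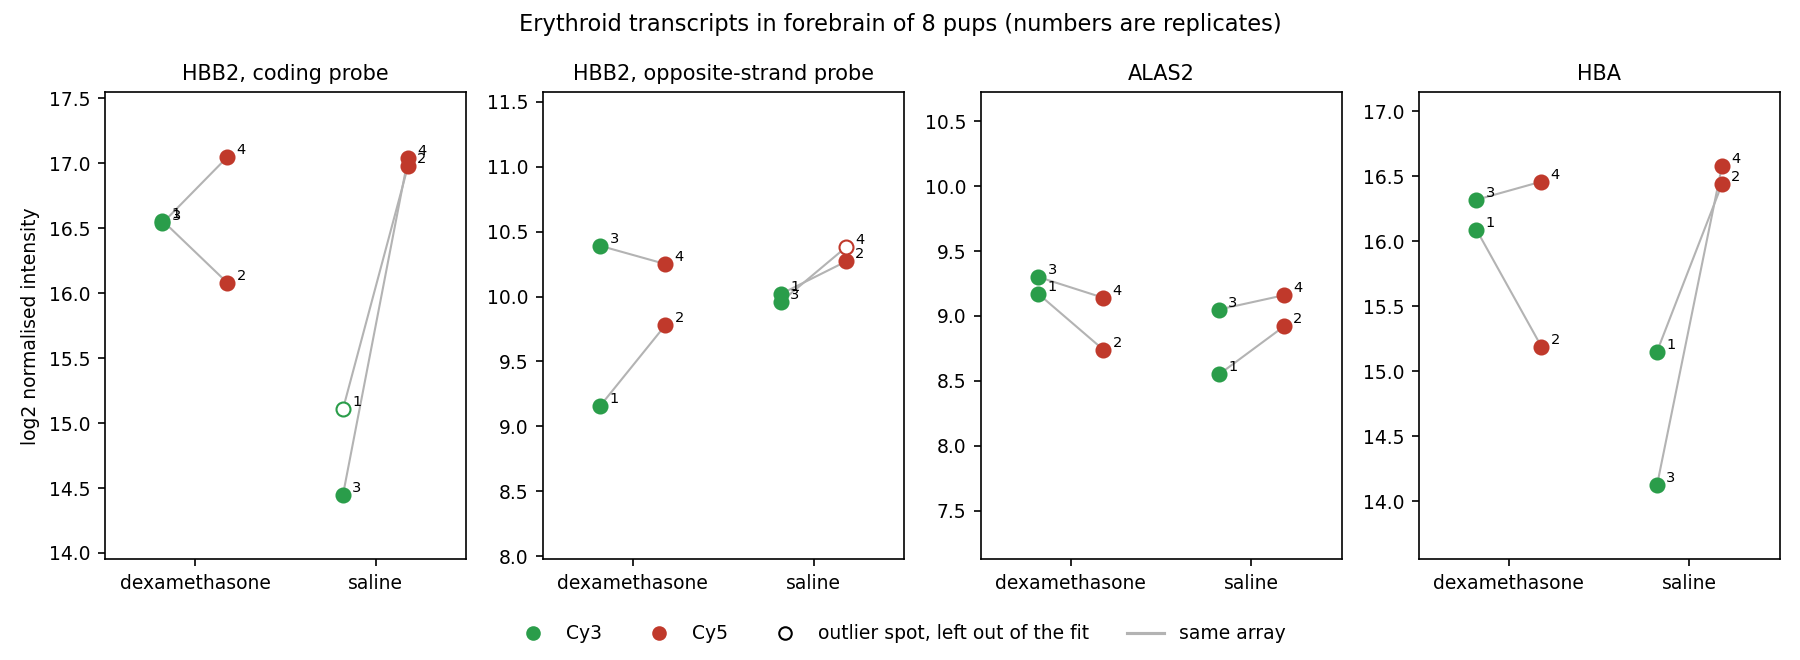
Log2 normalised intensity (vertical axis, the same length in each panel) of both HBB2 probes, ALAS2 and HBA in each pup, with dexamethasone left of saline. Numbers are replicates, colours are dyes, grey lines join the 2 pups of an array and open circles are outlier spots left out of the fit; for HBB2 and HBA the saline Cy3 pups lie far below the saline Cy5 pups of the same arrays.

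ALAS2, whose enzyme condenses glycine with succinyl-CoA, gave a dim signal. Dexamethasone pups 1 to 4 had raw mean intensities of 357, 360, 377 and 475, against 178, 359, 181 and 528 in saline pups 1 to 4. The probe was well above background in 4 of 4 dexamethasone pups and in 2 of 4 saline pups, and the saline pups where it was not were again pups 1 and 3. Its normalised log2 intensities were 9.17, 8.74, 9.30 and 9.14 in dexamethasone pups, against 8.55, 8.92, 9.05 and 9.16 in saline pups. The groups overlapped, with means of 9.09 ± 0.24 with dexamethasone and 8.92 ± 0.26 with saline (SD, n = 4 each). The fitted difference of 0.17 with an SE of 0.19 was also smaller than its error.

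The opposite-strand HBB2 probe did not follow the coding probe. Its log2 intensities were 9.16, 9.78, 10.39 and 10.25 in dexamethasone pups 1 to 4, against 10.02, 10.27 and 9.96 in saline pups 1 to 3, and the outlier spot of saline pup 4 gave 10.38. Saline pups 1 and 3, the lowest at the coding probe, were within 0.31 of saline pup 2 here. Over the 8 pups, with each dye centred and outlier spots kept, Pearson's r between both HBB2 probes was -0.003 (Spearman's rho 0.143). The fitted difference at this probe was -0.23 with an SE of 0.29.

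As background for the array as a whole, 7 of 10801 genes (0.0648%) passed an adjusted p of 0.05 in limma, 2 higher with dexamethasone (0.0185%) and 5 lower (0.0463%). Among the same genes 1509 (14%) had an unadjusted p under 0.05, and 1454 (13.5%) had groups that did not overlap. The median SE over all genes was 0.13, so the fitted error of HBB2 was well above that of a typical gene.

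The difference of HBB2 between the groups had opposite signs in the 2 dyes. Among Cy3 pups, dexamethasone pups 1 and 3 averaged a log2 intensity of 16.55 against 14.78 in saline pups 1 and 3 with the outlier spot kept, a difference of 1.77, and 2.09 with it left out. Among Cy5 pups, dexamethasone pups 2 and 4 averaged 16.56 against 17.01 in saline pups 2 and 4, a difference of -0.45. In raw intensity, the HBB2 mean with dexamethasone was 3.39 times the saline mean in Cy3 and 0.964 times in Cy5. ALAS2 differed by 0.43 among Cy3 pups and -0.10 among Cy5 pups, but neither of its saline Cy3 spots was well above background, so the Cy3 value carries that limit. With 2 pups of each group per dye, no test of these differences within a dye was made.

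HBA, which encodes the alpha chain, was read by 3 probes of its RefSeq transcript and had an order of pups close to that of HBB2. The other 6 of its 9 probes, designed on an expressed sequence tag, were well above background in at most 2 of 8 pups and were left out. Its brightest probe had log2 intensities of 16.09, 15.19, 16.32 and 16.46 in dexamethasone pups 1 to 4, against 15.15, 16.44, 14.12 and 16.58 in saline pups 1 to 4. The lowest pups were saline 3 and saline 1, as for HBB2, with dexamethasone 2 next above them. The fitted differences were 0.33, 0.44 and 0.51 at the 3 probes, and at the brightest 0.44 with an SE of 0.61 (adjusted p = 0.737, limma over all genes). Among Cy3 pups this probe was 1.57 higher with dexamethasone, and among Cy5 pups the difference was -0.68. Because a pair of the HBA probes share 48 bases, they are not independent readings of the gene.

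Over the 8 pups, with each dye centred and outlier spots kept, Pearson's r of HBB2 with the HBA probes was 0.967, 0.971 and 0.948. Leaving out saline pup 3 and dexamethasone pup 2, the pups farthest from the median of HBB2, gave 0.953, 0.975 and 0.866 over the remaining 6. For ALAS2, r with HBB2 was 0.636 (Spearman's rho 0.714) over 8 pups and 0.883 over those 6. The pups of an array share a hybridisation and those of a group a slide, and these coefficients carry no p. HBQ1, the theta globin gene, did not have this order of pups, with r of -0.134 to HBB2 and a difference of 0.08 (SE 0.20, adjusted p = 0.851 in limma).

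A comparison inside each array sets the pups of 1 group side by side, free of slide. On the dexamethasone arrays, HBB2 in pup 2 differed from pup 1 by -0.47 and in pup 4 from pup 3 by 0.51 on the log2 scale, with outlier spots kept. On the saline arrays, HBB2 in pup 2 was 1.87 above pup 1 and in pup 4 was 2.58 above pup 3. A larger difference in size was found for 13.2% and 8.91% of 11801 genes on the dexamethasone arrays, against 0.0593% (7 genes) and 0.00847% (1 gene) on the saline arrays. HBB2 was selected on intensities of these same samples, so the shares describe its place among the genes and are no test. In each array the 2 pups carried different dyes, so pup and dye cannot be told apart there.

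HBA differed by -0.90 and 0.14 between the pups of the dexamethasone arrays, against 1.30 and 2.45 on the saline arrays. The 100 brightest other genes, whose spots are the nearest in intensity to the globins, had median differences of 0.09 and -0.01 on the dexamethasone arrays, against 0.06 and -0.20 on the saline arrays. Between the pups of the saline arrays they ranged from -0.94 to 0.53 and from -1.23 to 1.05, so HBB2 and HBA both lay above all 100 on each saline array. ALAS2 differed by -0.43 and -0.16 on the dexamethasone arrays, against 0.37 and 0.11 on the saline arrays, where 13% and 31.5% of genes differed more.

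**Figure D2:**
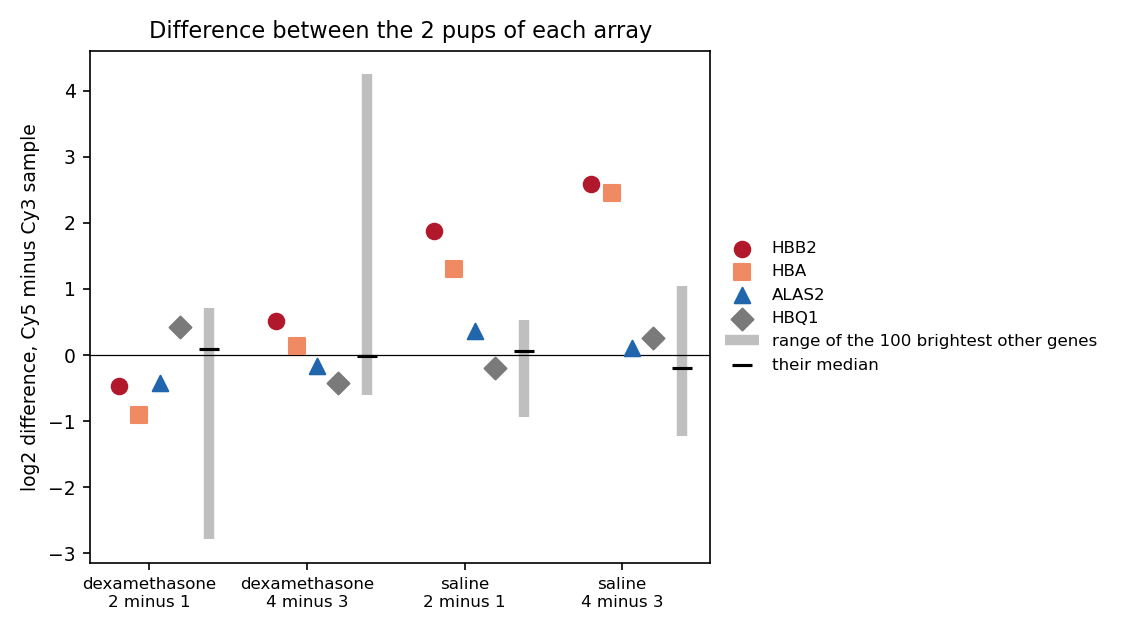
Log2 difference between the Cy5 and the Cy3 pup of each array (vertical axis) for HBB2, HBA, ALAS2 and HBQ1, with the dexamethasone arrays left of the saline arrays. Grey bars give the range and black ticks the median of the 100 brightest other genes; HBB2 and HBA lie above the bars on both saline arrays and within them on both dexamethasone arrays.

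The genes whose order of pups was most like that of HBB2 were found by Pearson's r over its 7 pups with a value, each dye centred, among 5466 genes with a symbol. HBA came first with r = 0.985. TOMM20, a receptor of mitochondrial protein import, and RABGAP1L, a Rab GTPase-activating protein, each had 0.984. PGD, of the pentose phosphate pathway, had 0.976 and LRWD1, a partner of the origin recognition complex, had 0.974. With 7 pups 42 genes (0.768%) exceeded 0.9, and ALAS2 stood at rank 589 with r = 0.682. None of these 5 genes had a difference between the groups over 0.44.

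For ALAS2, over 8 pups and 5465 genes, the most alike were C8H4orf33 and SCPEP1, a serine carboxypeptidase, each with r = 0.970. PIGG, of glycosylphosphatidylinositol anchor synthesis, followed with 0.968, RAB30, a Golgi GTPase, with 0.962, and CALCOCO2, an autophagy receptor, with 0.959. No globin was among the 5, and HBA had r = 0.567 at rank 741.

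The other red cell genes gave a mixed picture. Of 66 genes on a list of red cell and erythroid precursor genes, 31 had a named probe and 19 were tested. None of the 19 rose or fell at an adjusted p of 0.05. An unadjusted p under 0.05 was found for 2, beside 14% of all genes. Leaving HBB2 and ALAS2 out, the median difference of the other 17 was 0.08, with 10 above 0 and 7 below, beside a median of 0.02 and 53.9% above 0 over all genes. The red cell membrane and skeleton genes ran from dim to bright. RHAG and XK, of the blood group complexes, were well above background in 0 of 8 pups, SLC4A1, the anion exchanger, and EPB42 in 1, and EPB41, which ties spectrin to the membrane, in 2. KEL, the partner of XK, was in 5 of 8, and ADD2 and TMOD1, skeleton genes that neurons also express, in 8 of 8.

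BPGM, which makes the red cell regulator of oxygen release 2,3-bisphosphoglycerate, differed by 0.22 at its brightest probe (SE 0.19, adjusted p = 0.594 in limma). The differences at its 4 tested probes ran from -0.08 to 0.22. HEMGN, an erythroid nuclear factor, differed by 0.23 (SE 0.14, adjusted p = 0.461 in limma). SPTB, the beta spectrin also present in neurons, was the only tested gene of the list whose groups did not overlap, beside 13.5% of all genes. It had 8.22, 8.11, 8.26 and 8.09 in dexamethasone pups and 8.64, 8.39, 8.40 and 8.36 in saline pups (difference -0.28, adjusted p = 0.321 in limma). The spots of this probe were well above background in 2 of 4 dexamethasone and 2 of 4 saline pups. The other tested SPTB probe differed by -0.08.

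Summed over the 14 tested genes of the list with all 8 values other than HBA, HBB2 and ALAS2, the linear normalised intensity was 26356 to 28058 in dexamethasone pups and 23412 to 25520 in saline pups. In this sum saline pups 1 and 3 had 23412 and 24290, against 25520 and 24886 in saline pups 2 and 4. A gap of the size seen for the globins within the saline group was thus absent from the sum, which is weighted to bright genes. EIF2AK1, the brightest, had log2 intensities of 13.22, 13.28, 13.52 and 13.24 in saline pups 1 to 4. BPGM, the next brightest, had 12.08, 12.66, 11.82 and 12.54, with pups 1 and 3 lowest as for the globins. Most of these 14 genes, among them EIF2AK1, BNIP3L and XPO7, are also expressed outside the blood. In tissue RNA, fewer cells of a type and less RNA per cell cannot be told apart.

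In haem synthesis, the pathway that ALAS2 opens, 16 of 19 listed genes had a probe and 14 were tested. None of the 14 rose or fell at an adjusted p of 0.05. An unadjusted p under 0.05 was found for 4, beside 14% of all genes. The median difference was 0.14 with ALAS2 and 0.11 over the other 13. Among the enzymes that follow ALAS2, ALAD differed by 0.11, UROS by 0.23, UROD by 0.47, CPOX by 0.20, PPOX by -0.14 and FECH, which inserts the iron, by 0.24. The groups did not overlap for 4 of 14, beside 13.5% of all genes. Among them, UROS and TMEM14C, a mitochondrial porphyrin carrier, were higher with dexamethasone, by 0.23 and 0.22. SLC25A28, which brings iron into mitochondria and was also among them, was lower (difference -0.22), with 3 saline values.

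UROS, which closes the porphyrin ring, had 9.72, 9.45, 9.64 and 9.59 in dexamethasone pups, against 9.42, 9.42, 9.33 and 9.32 in saline pups (adjusted p = 0.357, limma). Unlike the globins, UROS had saline pups 1 and 3 level with saline pups 2 and 4. SLC25A38, the carrier that supplies glycine to ALAS2, differed by -0.34 at its brightest probe (SE 0.14, adjusted p = 0.357 in limma) and by -0.09 at its other tested probe. The brightest probe of SLC25A38 had no value in saline pup 2. ALAS1 was well above background in all 8 pups but was not tested because 2 of its saline spots were marked as outliers.

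**Figure D3:**
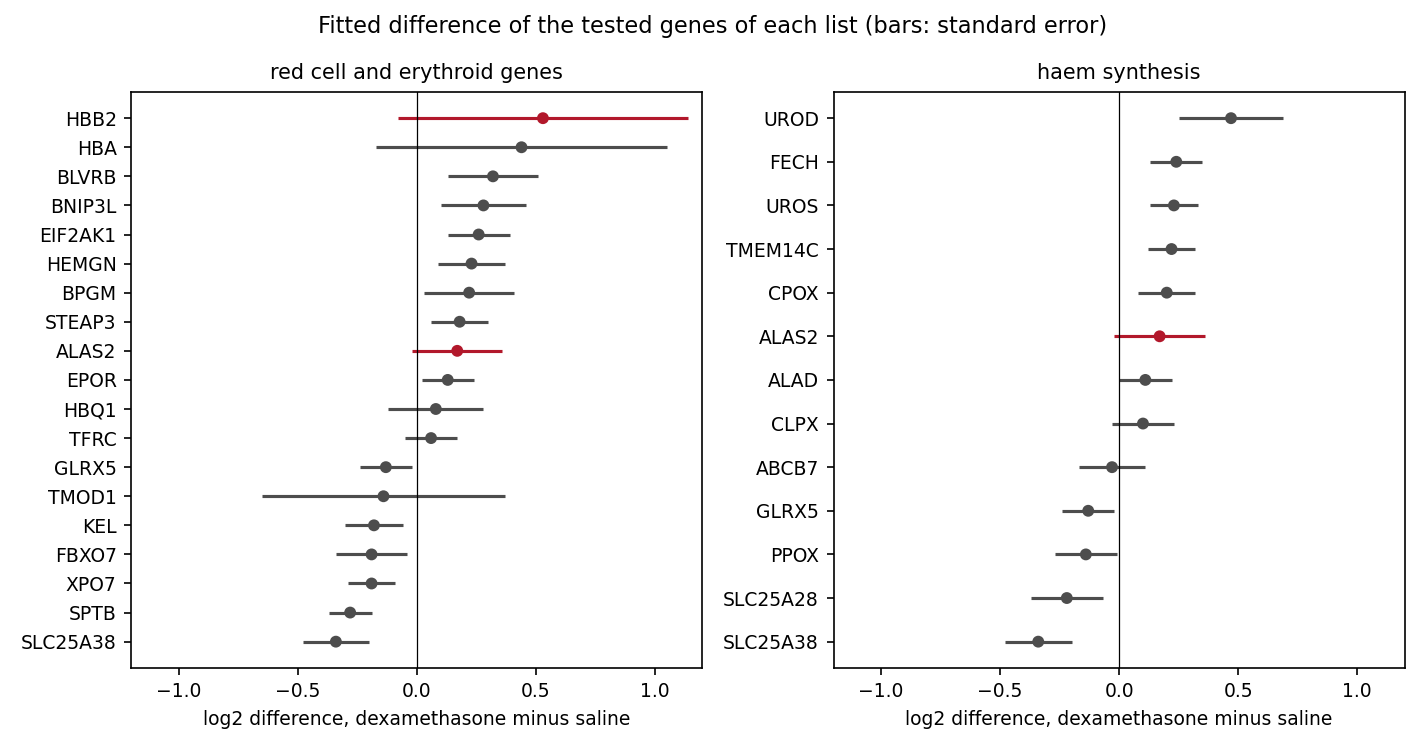
Fitted log2 difference, dexamethasone minus saline (horizontal axis), of the 19 tested red cell and erythroid genes and 13 of the 14 tested haem synthesis genes, with bars of 1 SE and HBB2 and ALAS2 in red. HBB2 and HBA have the 2 highest values and the 2 longest bars of the first list, and ALAS2 lies within the range of the other haem enzymes.

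Genes that handle iron, free haem and oxygen were also without a call, with an unadjusted p under 0.05 for 2 iron, 3 haem clearance and 2 oxygen genes. Over all genes 14% had an unadjusted p under 0.05 and 53.9% were above 0. Of 9 tested iron genes, 8 were above 0 with a median of 0.16. STEAP1, a metalloreductase, differed by 0.44 (SE 0.10, adjusted p = 0.245 in limma), and its 3 tested probes ran from 0.31 to 0.44. Of 10 tested genes of haem clearance 5 were above 0, with HEBP1, a haem-binding protein, at 0.55 and HMOX2, the constitutive haem oxygenase of brain, at -0.27 (adjusted p = 0.347 and 0.354 in limma). Of 14 tested genes of oxygen sensing 12 were above 0 with a median of 0.19. The hypoxia targets BNIP3 and ANKRD37 differed by 0.65 and 0.72 (adjusted p = 0.303 for both in limma). Saline pup 4 had no value for STEAP1, HEBP1 and BNIP3, which left 3 saline values for each. Over the 5 tested probes of ANKRD37 the differences ran from 0.34 to 0.72.

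Markers of white blood cells, platelets and vessel cells were examined beside the globins. Over all genes 46.1% were below 0 and 14% had an unadjusted p under 0.05. Of 12 tested white blood cell genes 11 were below 0 with a median of -0.29. None of them passed an adjusted p of 0.05, while 5 had an unadjusted p under 0.05. Their summed linear intensity was 6862 to 7727 in dexamethasone pups and 8095 to 10439 in saline pups, while PTPRC and CD3E were well above background in no pup. S100A9, a calcium-binding protein of neutrophils, had 9.55, 9.81, 9.52 and 9.60 in dexamethasone pups, against 10.63, 10.33, 10.61 and 10.62 in saline pups (difference -0.93, SE 0.13, adjusted p = 0.0692 in limma). In S100A9 the saline pups with the lowest globins were level with saline pup 4, which had the highest HBB2 of the saline group.

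For platelets, 6 genes were tested with a median of -0.17 and none called (2 at an unadjusted p under 0.05, beside 14% of all genes). Their sum was 10061 to 16553 in dexamethasone pups and 11688 to 20105 in saline pups. Its brightest gene on average, NRGN (neurogranin), had 12.65, 13.08, 13.20 and 11.81 in dexamethasone pups, against 13.52, 12.13, 13.06 and 11.97 in saline pups. The sum is weighted to that gene, and its source in these samples was not tested. The platelet gene with the smallest p was THBS1, a matrix glycoprotein, at -0.42 (adjusted p = 0.303, limma), and GP1BA, GP5 and SELP were well above background in no pup. For endothelial cells and pericytes, 12 genes were tested with none called (1 at an unadjusted p under 0.05) and a median of 0.09. Their sums were 7523 to 9468 in dexamethasone pups and 7316 to 12587 in saline pups. PECAM1, KDR and CD34 were well above background in no pup. SLC2A1, the brightest gene of this sum, had 12.92 in saline pup 4, against 11.85, 11.74 and 11.34 in saline pups 1 to 3. The differences at its 5 tested probes ran from -0.61 to 0.59. ABCB1, an efflux transporter of brain endothelium, differed by 0.73 (SE 0.14, adjusted p = 0.17 in limma), with no value in saline pup 4. The part of these cells in the HBB2 levels was not tested.

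Of 17 genes of neurons and glia with a probe, which define the labelled tissue, 15 were well above background in 4 or more pups, and the 14 tested had a median difference of 0.10. Spots well above background made up 47.7% to 64.3% of each dexamethasone channel and 39.1% to 59.7% of each saline channel. Outlier spots numbered 197 to 509 in dexamethasone channels and 932 to 3022 in saline channels, and saline pup 3, the lowest for HBB2, had the smallest share of spots above background. The part of these differences in the HBB2 levels was not tested.

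The fitted difference of HBB2 rested on single pups. Without saline pup 3 it was -0.44, and without both pups of that array -0.42. Without dexamethasone pup 2 it was 1.08 and without dexamethasone pup 1 it was 0.21. ALAS2 stood at 0.01 without saline pup 1 and at -0.02 without both pups of that array.

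**Figure D4:**
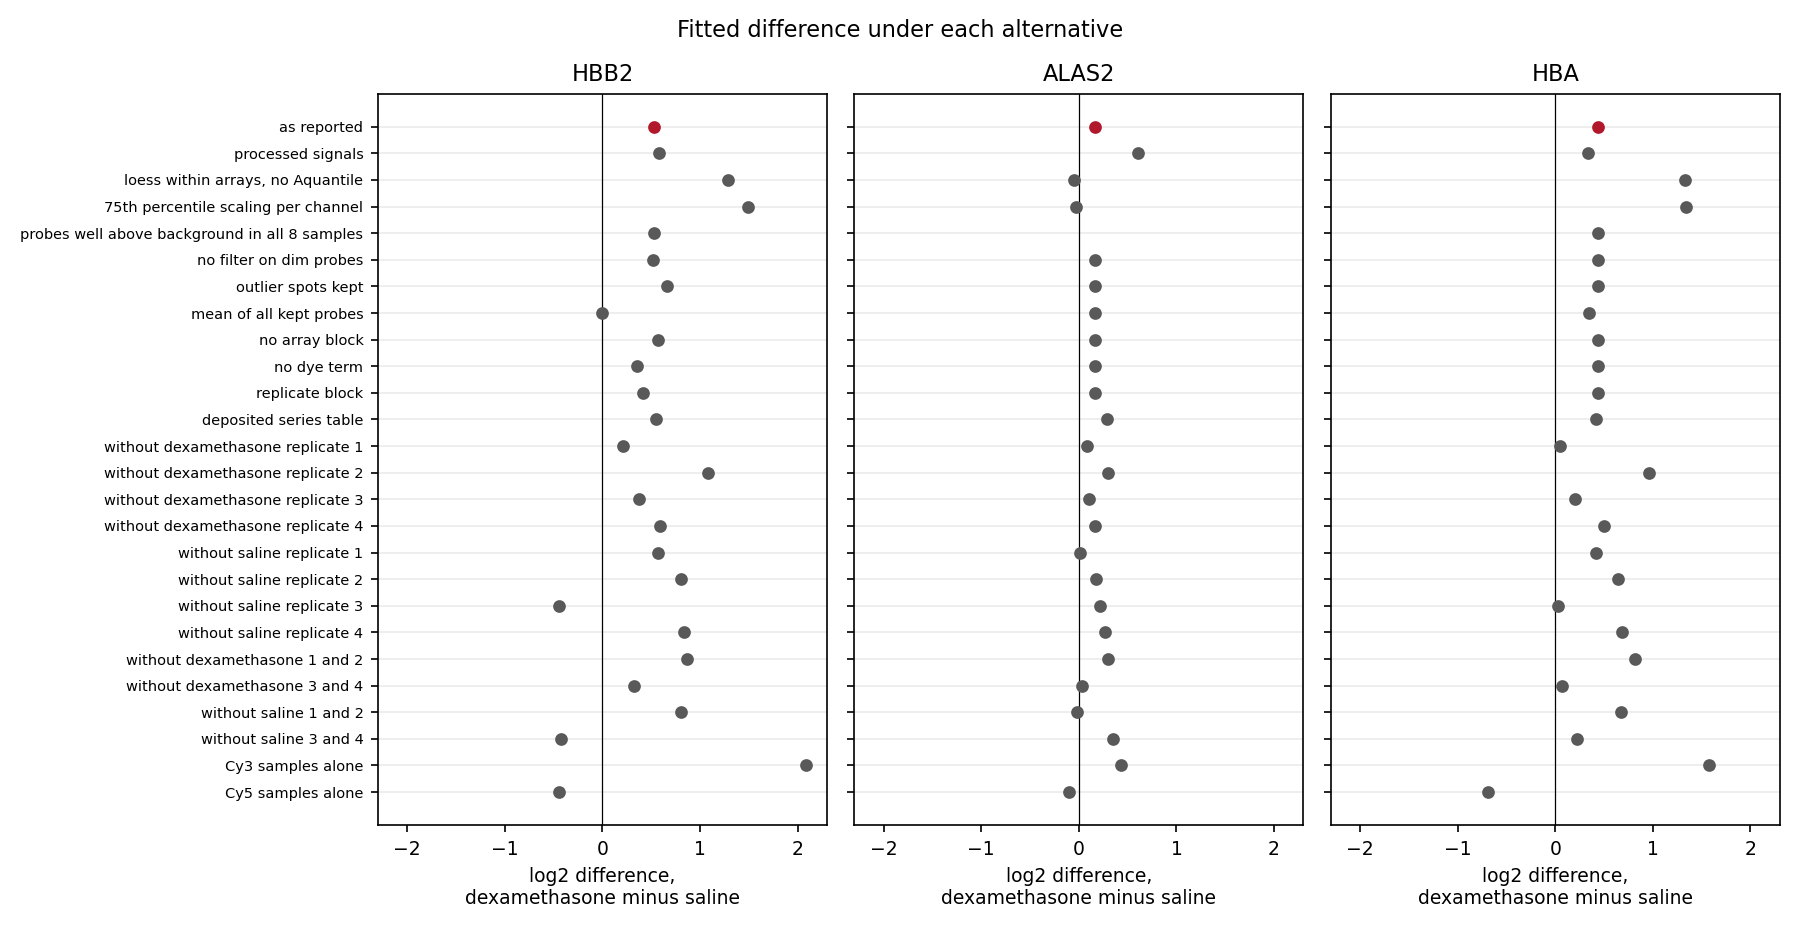
Fitted log2 difference, dexamethasone minus saline (horizontal axis), of HBB2, ALAS2 and HBA as reported (red) and under each other setting, left-out pup or dye (grey, down the vertical axis). HBB2 runs from -0.44 to 2.09 and changes sign without saline 3, without saline 3 and 4, and among Cy5 pups alone.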

How the data were processed

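Per the file headers, the authors scanned two-colour Agilent arrays and deposited spot intensity and local background intensity for each channel, made with Agilent Feature Extraction 11.0.1.1 (10.7.3.1 per the submitters' processing notes). The deposited series table holds a signal that the authors made per sample, which matched the median spot intensity less its local background, divided by 1 constant per sample, and was used as an alternative. The file of an array was deposited for both of its pups, and each pup's dye came from the labels. The scanner intensities as deposited were corrected with normexp (offset 50), normalised by loess within arrays and Aquantile between them in limma 3.58.1 (R 4.3.3), and given on a log2 scale. Control spots and outlier spots had no weight, and outlier spots were then left out. Probes had to be well above background in 4 or more of the 8 samples, which 23165 were. Each gene took the brightest of its kept probes. A gene was left out where that probe had under 3 values in a group, even if another of its probes had enough. The remaining 10801 genes were fitted with dye as a term and array as a random block (consensus correlation 0.24), with Benjamini-Hochberg adjustment. Precision is limited by having only 4 arrays, and p-values measure the spread between these pups. A symbol could be given to 22151 probes, and 21452 had none or several and kept the file's name. HBB2, ALAS2 and the gene lists were chosen with earlier results of these data known. Named genes were both members at every probe, tested genes of the erythroid and haem lists, the 3 smallest p of each other list, and the 5 genes most alike to each member by Pearson's r; HBB2 has 7 values, so its likeness was taken over 7. Further genes, such as dim markers, were named after their values were seen, and some listed genes are not reported here. The script was tested on simulated data. Replicate numbers did not pair the pups: same-numbered pups correlated by -0.11, -0.131, -0.007 and 0.102 after removing group means, so no block was used.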

Additional observations from a re-analysis of the deposited data

Results flagged for a closer look

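In 40 groups of 4 values examined, 1 value stood apart from the other 3 of its group by more than Dixon's critical value in 2 cases, and chance gives about 1 in 20. In SPTB, saline pup 1 had a log2 intensity of 8.64, against 8.36 to 8.40 in the other saline pups. In S100A9, saline pup 2 had 10.33, against 10.61 to 10.63 in the other saline pups. ALAS2 did not meet that criterion in either group, nor did HBB2 in the dexamethasone group. The saline group of HBB2 had only 3 values at each probe and was not examined.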

How the results depend on the processing

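The difference of HBB2 was between -0.44 and 1.08 when each pup was left out in turn and that of ALAS2 between 0.01 and 0.30. Loess with no Aquantile and 75th percentile scaling gave 1.29 and 1.49 for HBB2 and -0.05 and -0.03 for ALAS2, each relative to the median of all genes, and ALAS2 was -0.02 without saline 1 and 2. With Cy3 pups alone, chosen after seeing the data, HBB2 stood at 2.09 and ALAS2 at 0.43, and with Cy5 pups alone at -0.44 and -0.10. HBA stood at 1.57 with Cy3 pups alone and at -0.69 with Cy5 pups alone. ALAS2 was 0.61 from processed signals. The mean of both HBB2 probes differed by 0.00. With the replicate block HBB2 was 0.42, ALAS2 0.17 and HBA 0.44, 5 genes were called, and no result changed its direction. HBB2 could not be fitted among genes with all 8 values, nor ALAS2 among probes well above background in all 8 pups.

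The 7 calls became 14 from processed signals, 0 with loess and no Aquantile, 2228 with 75th percentile scaling, 2 with no filter on dim probes, 12 with the mean of all kept probes, 29 with no array block, 18 with no dye term, 24 at an adjusted p under 0.1 and 0 (738 at an unadjusted p under 0.05) with HBB2 as a covariate, which also uses up 1 degree of freedom. They numbered 0 to 15 with single pups left out, with 0 when any 1 dexamethasone pup was left out, and 2184, 236, 0 and 2 without the arrays of saline 1 and 2, saline 3 and 4, dexamethasone 1 and 2, and dexamethasone 3 and 4. Loess with no Aquantile, 75th percentile scaling and the deposited series table moved the median of all genes to -0.64, -0.30 and 0.13. Centred on that median, chosen after seeing the data, the first 2 settings called 0 (1077 at an unadjusted p under 0.05) and 12, and the values for lists and genes below are relative to it.

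Under loess with no Aquantile and 75th percentile scaling, the list medians were 0.31 and 0.30 for red cell genes, 0.27 and 0.30 for haem synthesis, -0.08 and -0.07 for haem clearance, 0.64 and 0.65 for iron, -0.59 and -0.58 for white blood cells, 0.03 and 0.04 for platelets and -0.40 and -0.39 for vessel cells. Processed signals gave 0.19 for haem synthesis, 0.21 for haem clearance, 0.34 for iron, 0.36 for oxygen sensing and 0.23 for vessel cells. With probes above background in all 8 pups, haem synthesis had -0.03, haem clearance -0.17 and iron 0.39. Haem synthesis had 0.19 over genes with 8 values, iron 0.07 with no filter, and the series table gave 0.23 for haem synthesis and -0.49 for white blood cells. Without saline 1 and 2, the medians were 0.02 for haem synthesis, -0.06 for haem clearance and -0.33 for platelets. Iron had 0.09 without saline 3 and 4 and without dexamethasone 3 and 4. With single pups left out, haem synthesis ranged from 0.08 to 0.20 and iron from 0.10 to 0.20.

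Of 446 values of single genes other than HBB2 and ALAS2 under these alternatives, the single dyes aside, 417 kept their direction and side of the threshold, 15 passed it and 14 changed sign. HBQ1 was -0.03, -0.04 and -0.01 without saline 2, dexamethasone 2 and dexamethasone 3, and -0.10 without saline 1 and 2. With loess and no Aquantile, then with 75th percentile scaling, HEMGN was -0.76 and -0.75, SLC25A38 0.30 and 0.30, FECH -0.83 and -0.82, HMOX2 0.46 and 0.47, and THBS1 0.13 and 0.15. S100A9 passed an adjusted p of 0.05 in 7 of 24 alternatives, over which its p ranged from 0.00333 to 0.561. The causes were not tested. ALAS2 is limited by its signal, which was not well above background in 2 saline pups.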
